A study of Homo sapiens with 6 samples.

Results

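The genes described here carry glucose into the cell, break it down to pyruvate, and pass pyruvate on to lactate or to the mitochondrion. They were taken by name from the deposited table: 33 genes were listed and all 33 were found, each on 1 row, among 31016 genes. RNA had been measured in DLD-1 cells, an established human colorectal adenocarcinoma line, in 2 groups of 3 libraries. The group TGFb received TGF-β, a growth factor that pushes epithelial cells towards a mesenchymal state. The group TGFb_TFA was given TFA as well, a flavone extract (total flavones) of Abelmoschus manihot, a medicinal plant. TGF-β is thus shared by all 6 libraries, and the only comparison asks what TFA adds to it. The labels give a treatment time of 24 h for library 1 of each group, 25 h for library 2 and 26 h for library 3. These hours rise by 1 with the library number in both groups and may be a numbering rather than measured times, so no result rests on them. All libraries come from 1 cell line, and nothing in the labels says that they came from separate cultures, so p-values measure the spread between these libraries, which may be technical. The sources used here give no dose of TFA.

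Glycolysis begins with glucose transporters and hexokinases, which bring glucose in and trap it as glucose 6-phosphate. Phosphofructokinase then commits the sugar to breakdown, under the control of fructose 2,6-bisphosphate, and the later enzymes from aldolase to pyruvate kinase yield ATP and pyruvate. Tumour cells often turn much of the pyruvate into lactate by lactate dehydrogenase and export it through monocarboxylate transporters, while pyruvate dehydrogenase kinases hold back its entry into the citric acid cycle. Many of these genes are known targets of the hypoxia factor HIF-1 and of MYC. RNA levels do not measure the flux through these steps.

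Total estimated counts ran from 60361756 to 68745953 per library. Markers of colonic epithelium summed to 1416 to 1661 FPKM with TGF-β and 1322 to 1466 FPKM with TFA added, of which EPCAM gave 204.8 ± 4.91 and 196.0 ± 8.32 (SD, n = 3). FPKM is the authors' count scaled by transcript length and by library size. VIL1 and LGALS4, which mark mature colonocytes, had means under 0.3 FPKM in both groups. Fibroblast markers (8 genes) summed to 0.0524 to 0.355 FPKM with TGF-β and 0.373 to 2.34 FPKM with TFA, with COL3A1, DCN and LUM at 0 in all 3 TGFb libraries and COL1A1 at 0.0610 ± 0.0514 and 0.470 ± 0.332 (SD, n = 3), and endothelial markers (5 genes, CDH5 at 0 in all 3) to 0.0210 to 0.174 and 0.195 to 0.389 FPKM. Both sums were higher with TFA at trace level, and their part in the results below was not tested. TGFb_TFA 3 stood apart along transcript length. Its deviation from the mean of the 6 libraries had a median of 0.18 (log2) in the shortest 10% of all tested genes and of -0.29 in the longest 10%, while no median of either kind in the other 5 libraries went beyond -0.15 or 0.17.

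No gene of the pathway passed the test. The fitted log2 fold changes, TGFb_TFA over TGFb, ran from -0.39 (SLC2A3) to 0.24 (MPC1), with a median of -0.08, beside 0.01 over all 18265 genes tested. All 33 were high enough to be tested. In edgeR's quasi-likelihood test, with p-values adjusted by Benjamini-Hochberg over all tested genes, 0 of the 33 were called at an adjusted p under 0.05 (adjusted p = 0.9997 for each), where 0.0109% of all genes were called. DESeq2 called 0 as well (0.0712% of all genes). At an unadjusted p under 0.05 stood 2 members, both lower, SLC2A3 and PFKFB4, where 0.761% of all genes stood on the lower side. DESeq2 placed 3 there, with PDK1 (0.996% of all genes), and edgeR with the replicate number as a block placed 0 there (0.312% of all genes). On the higher side there were 0 members, against 1.07% of all genes. Fitted values lay below 0 in 23 of the 33, beside 48.1% of all genes. This lean rested in part on TGFb 2: without that library 18 of the 33 lay below 0, beside 50.3% of all genes, and the members' median was -0.01. The 95% intervals held 0 in 31 members, and every interval lay within a 2-fold change in either direction. In 22 members the interval lay within 1.5-fold. In bulk RNA, fewer cells that express a gene and less RNA per cell cannot be told apart.

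**Figure D1:**
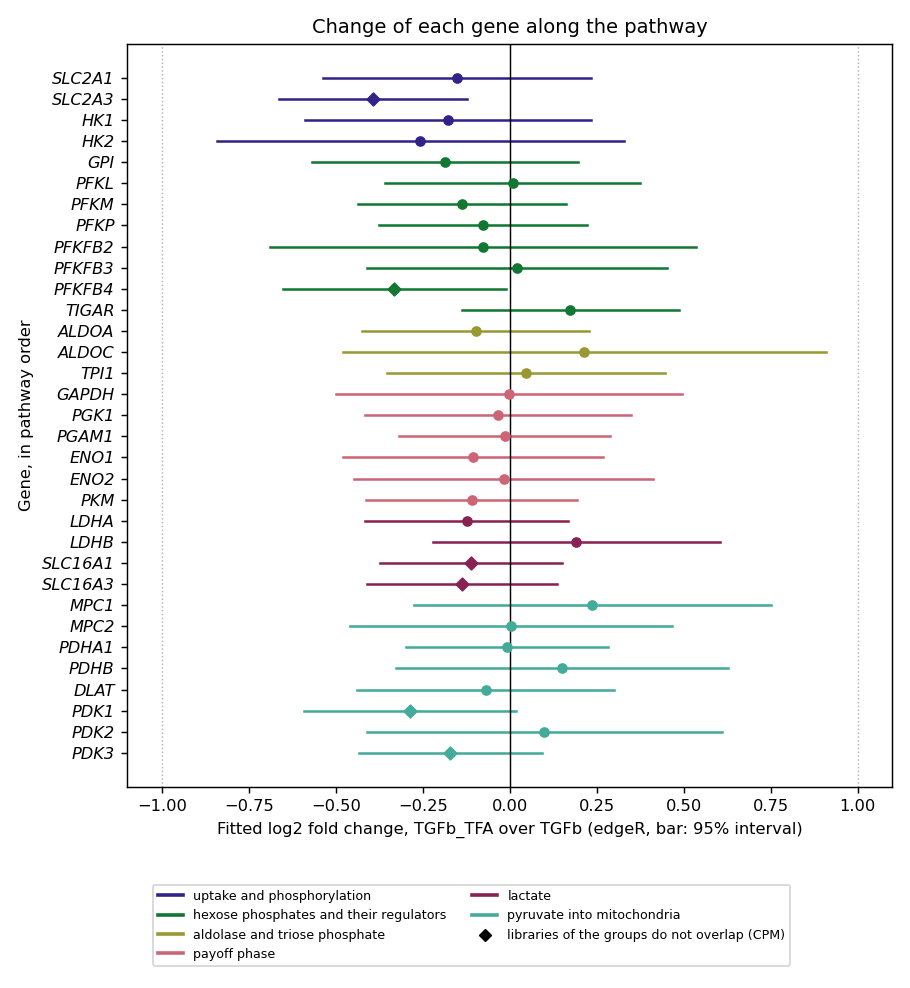
Fitted log2 fold change of each of the 33 genes (points) with its 95% interval (bars), TGFb_TFA over TGFb, from the edgeR fit; genes run down the axis in pathway order, coloured by step, and diamonds mark genes whose libraries do not overlap between groups on the CPM scale. Dotted lines mark a 2-fold change, and all 33 intervals lie inside them; the intervals of SLC2A3 and PFKFB4 alone leave out 0.

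In 6 members all 3 TGFb_TFA libraries lay below all 3 TGFb libraries in CPM, counts scaled to the TMM-adjusted library size. They were SLC2A3, PFKFB4, SLC16A1, SLC16A3, PDK1 and PDK3. The share of all genes in that position was 3.33%. In 0 members did they lie above, against 4.58% of all genes. They encode a glucose transporter, a maker and breaker of fructose 2,6-bisphosphate, a pair of lactate carriers and a pair of kinases that switch off pyruvate dehydrogenase. Other members of the same kinds overlapped between groups, among them SLC2A1, PFKFB2, PFKFB3 and PDK2. On the deposited FPKM scale, the groups were apart in 5 members on the lower side (SLC2A3, PFKFB4, LDHA, PDK3 and SLC16A3, where 3.73% of all genes were) and in 1 on the higher side (TIGAR, 4.22%). SLC2A3, PFKFB4, PDK3 and SLC16A3 were thus apart on both scales. Within a gene these scales differ mainly by the TMM factor, so being apart on both is no independent support. That factor was 0.895 for TGFb_TFA 3 and 0.993 to 1.04 for the other libraries. In CPM adjusted for each library's trend along transcript length, SLC2A3 alone was still apart (1 member lower, where 3.85% of all genes were). That adjustment may have taken the trend out to excess, so it does not show which genes would stay apart without the trend. In the fit with these trends removed, the values of the other 5 stayed negative. They were -0.31 for PFKFB4, -0.23 for PDK1, -0.11 for PDK3, -0.11 for SLC16A1 and -0.09 for SLC16A3.

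Promoters of several of these genes carry ACGTG, the core of the element bound by HIF-1, which is also part of CACGTG, the E-box bound by MYC. The stretch of 250 bases before each RefSeq start (GRCh38.p14) was searched for ACGTG on both strands, with overlapping matches counted once. Starts were found for 30 of the 33 genes, with 60 windows, some of which overlap. SLC2A3, PFKFB2 and SLC16A1 had no entry. ACGTG was in 36.7% of the 60 windows and in 18.5% of 35116 windows of all genes, which were not matched to the members for expression or base composition. By gene, 19 of the 30 had ACGTG in at least 1 window. GCGTG, the core bound by the aryl hydrocarbon receptor and an alternative HIF-1 core, was in 33.3% and 32.2%. The windows of LDHA, PDK1, PDK3, PFKFB4, SLC16A3 and TIGAR are shown because these are the genes with an entry whose groups were apart on at least 1 scale, with the start that has the most matches; each reads 5′ to 3′ on the gene's strand and ends at the base before the start, and capitals mark ACGTG or its reverse complement, including the E-box CACGTG.
LDHA, chr11:18394313-18394562, plus strand: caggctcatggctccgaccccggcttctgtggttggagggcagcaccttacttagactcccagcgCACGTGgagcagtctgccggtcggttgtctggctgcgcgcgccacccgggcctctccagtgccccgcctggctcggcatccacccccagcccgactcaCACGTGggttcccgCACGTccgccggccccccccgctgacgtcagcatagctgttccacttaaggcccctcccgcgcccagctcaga
PDK1, chr2:172555840-172556089, plus strand: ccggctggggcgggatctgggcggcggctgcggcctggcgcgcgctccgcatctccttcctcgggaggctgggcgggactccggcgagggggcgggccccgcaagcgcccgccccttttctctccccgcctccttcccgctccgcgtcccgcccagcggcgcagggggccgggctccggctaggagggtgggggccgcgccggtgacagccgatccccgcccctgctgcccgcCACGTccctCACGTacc
PDK3, chrX:24465036-24465285, plus strand: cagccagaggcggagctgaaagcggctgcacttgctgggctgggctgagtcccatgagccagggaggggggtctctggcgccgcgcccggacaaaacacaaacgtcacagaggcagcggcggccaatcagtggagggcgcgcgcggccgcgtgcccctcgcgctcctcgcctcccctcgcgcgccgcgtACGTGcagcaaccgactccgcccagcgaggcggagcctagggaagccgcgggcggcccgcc
PFKFB4, chr3:48556804-48557053, minus strand: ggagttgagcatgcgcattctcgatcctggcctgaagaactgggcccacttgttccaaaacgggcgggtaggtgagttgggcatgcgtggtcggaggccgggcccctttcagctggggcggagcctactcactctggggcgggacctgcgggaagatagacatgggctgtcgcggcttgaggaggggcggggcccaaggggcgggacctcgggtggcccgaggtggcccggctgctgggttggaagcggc
SLC16A3, chr17:82228792-82229041, plus strand: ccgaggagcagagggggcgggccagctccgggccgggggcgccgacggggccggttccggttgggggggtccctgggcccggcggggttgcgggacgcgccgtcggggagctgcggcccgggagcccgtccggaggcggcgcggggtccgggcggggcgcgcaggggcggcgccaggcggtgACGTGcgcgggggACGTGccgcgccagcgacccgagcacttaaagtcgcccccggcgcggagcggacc
TIGAR, chr12:4320963-4321212, plus strand: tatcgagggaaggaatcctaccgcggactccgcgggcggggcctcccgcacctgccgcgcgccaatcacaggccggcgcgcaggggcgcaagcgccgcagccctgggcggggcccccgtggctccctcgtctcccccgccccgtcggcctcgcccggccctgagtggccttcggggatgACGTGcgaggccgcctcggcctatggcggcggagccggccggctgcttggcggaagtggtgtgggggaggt
The LDHA window holds 3 matches, 2 of them within an E-box, and that of PDK1 holds 2 close to the start. PDK3 and TIGAR, the gene whose TFA libraries were higher in FPKM, have 1 match each, and PFKFB4 has 0 in this window. LDHA and PDK1 each have a further listed start whose window holds 0. The SLC16A3 window holds 2, and those of its other 4 listed starts hold 0. A match is a stretch of letters and not a measured site. Many members that were not apart between groups hold matches as well, among them GAPDH, GPI, PGK1, HK2, ALDOA, PDHB, PDK2 and PFKFB3. A link between matches and the groups being apart was not tested.

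Levels differed far more between the genes than between the groups. GAPDH, the dehydrogenase that starts the energy-yielding phase, averaged 2405 FPKM over the 6 libraries, 2.73 times the next gene. LDHB followed at 880 FPKM, ENO1 at 458, TPI1 at 361 and LDHA at 288, and each of these stood above the next in every library. PGAM1 (165), SLC16A1 (155), PKM (140) and PGK1 (139) formed a run in which neighbours overlapped, and ALDOA (96.7) stood below them in every library. SLC2A1, the widely expressed glucose transporter GLUT1, came next at 27.4 FPKM. From SLC2A1 down to PFKM (10.3) each neighbour overlapped with the next, through MPC2, MPC1, PDHA1, PDHB, GPI, DLAT, PFKP and SLC2A3. The hexokinases, the liver-type phosphofructokinase PFKL, and all regulators of fructose 2,6-bisphosphate stood below that run. The lowest were PFKFB4 (1.53), ALDOC (0.747) and PDK2 (0.636). The 33 genes held 1.57% to 1.75% of the summed FPKM of a library, and GAPDH alone took 43.3% to 48.5% of their sum.

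**Figure D2:**
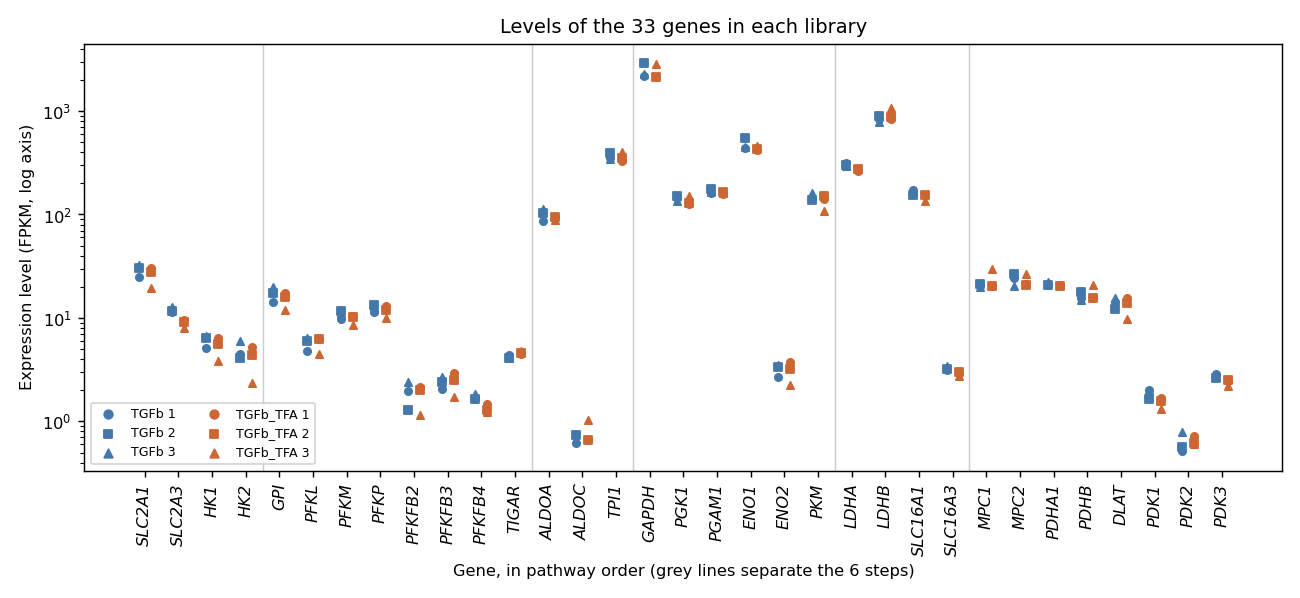
Expression level (FPKM, log axis) of the 33 genes in pathway order in each of the 6 libraries; blue points are TGFb and orange points TGFb_TFA, with circles, squares and triangles for libraries 1, 2 and 3, and grey lines separate the steps. GAPDH averaged 2405 FPKM and PDK2 0.636 FPKM, and within a gene the points of both groups mostly share the same range.

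SLC2A3 encodes GLUT3, a glucose transporter of high affinity. Its level was 76.4, 79.9 and 84.9 CPM in TGFb 1 to 3 and 62.8, 59.3 and 61.6 CPM in TGFb_TFA 1 to 3. Every TFA library lay below every TGFb library, and the gap between the groups was wider than the spread within either. In FPKM its mean was 11.9 ± 0.723 with TGF-β and 8.90 ± 0.779 with TFA (SD, n = 3). Its fitted log2 fold change of -0.39 (SE 0.12, 95% interval -0.66 to -0.12) was the lowest among the members. It did not pass over all genes (unadjusted p = 0.01045, adjusted p = 0.9997 by the edgeR quasi-likelihood test). DESeq2's Wald test gave an unadjusted p of 0.000431 and an adjusted p of 0.225. The fitted value stayed between -0.45 and -0.37 in the 18 alternatives, whose adjusted p was 0.225 or higher. These refit the same libraries and are no independent support. SLC2A3 (ENSG00000059804) lies at bases 7919230 to 7936187 of chromosome 12, minus strand (GRCh38). SLC2A14, a near-identical gene, was counted at 1.19% of its FPKM, and how reads shared by the pair were divided is unknown.

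The other genes of uptake and phosphorylation did not part by group. SLC2A1, the gene of GLUT1, had 180, 226 and 234 CPM with TGF-β and 218, 196 and 161 with TFA, a log2 fold change of -0.15 (SE 0.17). HK1, the housekeeping hexokinase, had -0.18 (SE 0.18), and HK2, the hexokinase often raised in tumours, had -0.26 (SE 0.25). HK2 stood at 29.1, 27.6 and 38.5 CPM against 33.8, 28.1 and 17.7, so that its lowest value was that of TGFb_TFA 3 and the other 2 TFA libraries lay within the TGFb range. The 4 genes of the step had a median of -0.22, which became -0.05 without TGFb_TFA 3. Then SLC2A3 kept its value (-0.40) and SLC2A1, HK1 and HK2 came to -0.04, -0.05 and -0.04.

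At the level of hexose phosphates, PFKFB4 was the gene that parted. It makes and breaks fructose 2,6-bisphosphate, the main activator of phosphofructokinase. It had 11.2, 11.55 and 12.4 CPM with TGF-β and 9.83, 8.55 and 9.52 CPM with TFA, with all 3 TFA libraries lower. The FPKM means were 1.72 ± 0.107 and 1.34 ± 0.133 (SD, n = 3). The edgeR fit gave -0.33 (SE 0.14, interval -0.65 to -0.01; unadjusted p = 0.0446, adjusted p = 0.9997). It was negative in all 18 alternatives (-0.39 to -0.22). Those refit the same libraries, so with the groups apart its sign could hardly change. PFKFB4 (ENSG00000114268) lies at bases 48517684 to 48561972 of chromosome 3, minus strand.

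For its relatives the groups overlapped in CPM. PFKFB3, the inducible form with the strongest kinase bias, had 13.8, 16.8 and 18.1 CPM against 19.4, 16.8 and 13.2 (log2 fold change 0.02, interval -0.41 to 0.45), and PFKFB2 had -0.08 (interval -0.69 to 0.54). TIGAR, a p53 target that breaks down fructose 2,6-bisphosphate, had 4.41, 4.12 and 4.12 FPKM with TGF-β and 4.48, 4.62 and 4.79 FPKM with TFA. On that scale its TFA libraries were all higher, and in CPM they overlapped (45.9, 44.01 and 42.7 against 45.7, 46.9 and 57.0). Its fitted value was 0.17 (SE 0.13) and was above 0 in all 18 alternatives. The enzymes themselves were the phosphofructokinases PFKL (0.01), PFKM (-0.14) and PFKP (-0.08), and the isomerase GPI (-0.19, SE 0.16). Their libraries overlapped between groups and their intervals held 0, though the fitted values of GPI and PFKM were as large as those of SLC16A3 and SLC16A1 and were below 0 in all 18 alternatives. PFKP and PFKM were the more abundant phosphofructokinases, at 12.1 and 10.3 FPKM, and stood above PFKL (5.67) in every library.

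From aldolase to pyruvate kinase the groups overlapped in all 9 genes. ALDOA, the main aldolase here, had 366, 446 and 477 CPM with TGF-β and 390, 389 and 425 CPM with TFA (-0.10, SE 0.14). An unnamed gene on the same strand, AC093512 (ENSG00000285043), overlaps it at 12.1% of its FPKM, so reads of the pair could be split. TPI1, triose phosphate isomerase, had 0.05 (SE 0.17), and its pseudogenes in the table summed to 5.76% of its FPKM. GAPDH, also widely used as a reference gene, had 5771, 7836 and 5966 CPM against 5474, 5542 and 8516 CPM. Both groups held a library far above the other 2, TGFb 2 and TGFb_TFA 3. The fitted value of GAPDH was -0.003 (interval -0.50 to 0.49), and it was below 0 in 11 and above 0 in 7 of the 18 alternatives. PGK1 (-0.03), PGAM1 (-0.02), ENO1 (-0.11), ENO2 (-0.02) and PKM (-0.11) completed the payoff phase, whose 6 genes were all fitted at or below 0 with a median of -0.03. Without TGFb_TFA 3 that median was -0.15, with 5 of the 6 below 0: GAPDH at -0.25, ENO1 at -0.23 and PGK1 at -0.21 against ENO2 at 0.11. Without TGFb 2 it was 0.03, with GAPDH at 0.15, PGAM1 at 0.04, ENO1 and PGK1 at 0.02 and PKM (-0.14) alone below 0. The minor isozymes ALDOC (0.21, interval -0.48 to 0.91) and ENO2 had low levels, and ENO2 is overlapped on its strand by LRRC23, whose FPKM is 121% of its own.

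**Figure D3:**
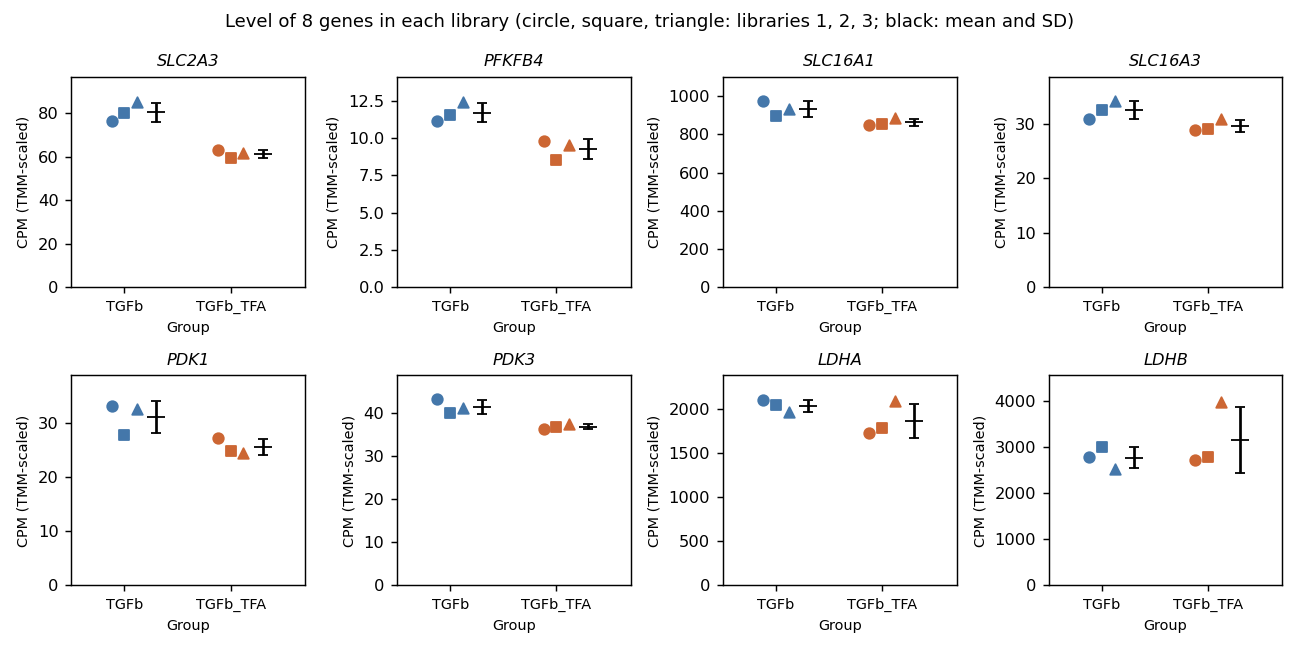
Level (CPM on the TMM-scaled library size) of the 6 genes whose groups did not overlap and of the lactate dehydrogenase genes LDHA and LDHB, in each library; blue is TGFb, orange TGFb_TFA, with circles, squares and triangles for libraries 1, 2 and 3 and black bars for mean and SD. SLC2A3 lies at 76.4 to 84.9 CPM in TGFb and at 59.3 to 62.8 CPM in TGFb_TFA, and in LDHB the raised TFA mean comes from the triangle, TGFb_TFA 3, at 3992 CPM.

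The lactate dehydrogenase genes were fitted in opposite directions, with the positive value of LDHB resting on TGFb_TFA 3. LDHA encodes the subunit that favours lactate formation, and LDHB the subunit that favours its return to pyruvate. LDHA had 316, 299.5 and 297 FPKM with TGF-β and 266, 276 and 275 FPKM with TFA. On that scale the groups were apart, and in CPM they were not, since TGFb_TFA 3 (2095 CPM) lay among the TGFb libraries (1967 to 2105 CPM). Its log2 fold change was -0.12 (SE 0.13) and was negative in all 18 alternatives (-0.21 to -0.08). LDHB had 844.5, 888 and 775 FPKM against 842, 869 and 1062 FPKM, a fitted 0.19 (SE 0.18). Only TGFb_TFA 3 lay above the TGFb range, and without that library LDHB was at -0.01.

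The ratio of LDHA to LDHB in FPKM was 0.374, 0.337 and 0.383 with TGF-β and 0.315, 0.317 and 0.259 with TFA. LDHB was thus the more abundant RNA in every library, by 2.61 to 3.86 times, and the ratio was lower in all 3 TFA libraries than in any TGFb library. The means were 0.365 ± 0.0243 and 0.297 ± 0.0329 (SD, n = 3), a log2 difference of -0.30. As a difference of fitted values it was -0.32 (LDHA minus LDHB), -0.26 with the length trends removed and -0.20 without TGFb_TFA 3. No test was run on this ratio. LDHA has the longer transcript by effective length, and pseudogenes named after it summed to 2.62% of its FPKM.

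**Figure D4:**
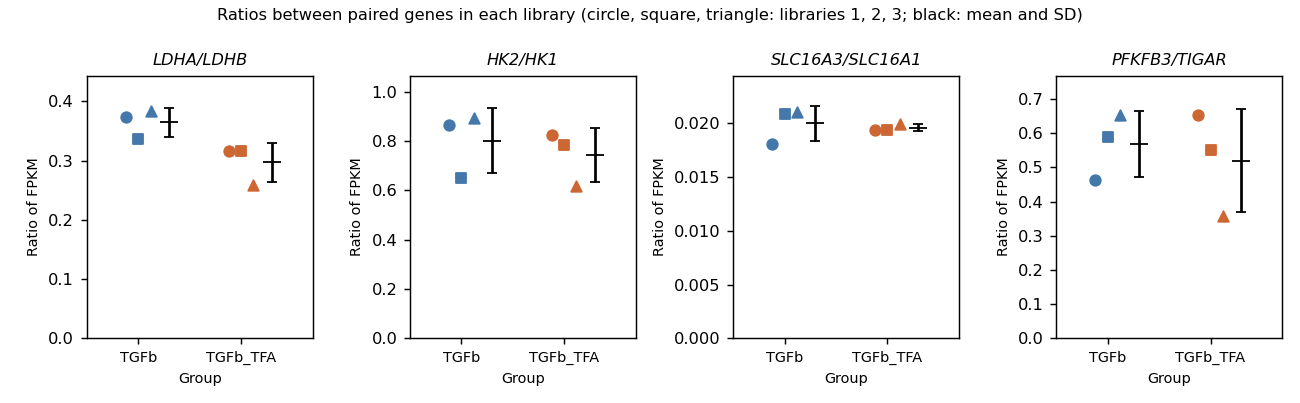
Ratio of FPKM between paired genes in each library, with axes from 0; blue is TGFb, orange TGFb_TFA, with circles, squares and triangles for libraries 1, 2 and 3 and black bars for mean and SD. LDHA/LDHB lies at 0.337 to 0.383 with TGF-β and at 0.259 to 0.317 with TFA, and the groups overlap in the other 3 ratios.

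Both lactate carriers stood lower in every TFA library, by small steps. SLC16A1 encodes MCT1, which moves lactate in either direction. It had 975.5, 894 and 930 CPM with TGF-β and 851, 856 and 884 CPM with TFA. The lowest TGFb library and the highest TFA library were close, at 894 and 884 CPM, and in FPKM the groups overlapped. The log2 fold change of SLC16A1 was -0.11 (SE 0.11, interval -0.37 to 0.15). SLC16A3 encodes MCT4, the export form induced in hypoxia, and had 30.9, 32.6 and 34.2 CPM against 28.9, 29.0 and 30.9 CPM, so that the nearest libraries of the groups were equal to the digits given. Its value was -0.14 (SE 0.12, interval -0.41 to 0.14), and with DESeq2's size factors the groups overlapped. CSNK1D, on the opposite strand, overlaps SLC16A3 at 102% of its FPKM, and the sources used here do not say whether counting used strand. MCT4 RNA was 0.0200 ± 0.00163 of MCT1 RNA with TGF-β and 0.0196 ± 0.000333 with TFA (SD, n = 3, ratio of FPKM), a log2 difference of -0.03. BSG, the chaperone that both carriers need at the membrane, was at 50.5 ± 5.63 and 47.0 ± 5.51 FPKM (-0.08, SE 0.13).

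Among the members that handle the entry of pyruvate into the mitochondrion, 2 of 8 were apart in CPM, both lower, where 3.33% of all genes were. These were PDK1 and PDK3, which encode kinases of pyruvate dehydrogenase, while the groups of PDK2, the other member kinase, overlapped. The remaining kinase, PDK4, is no member, and its groups overlapped at a low level (0.296 ± 0.145 and 0.243 ± 0.0185 FPKM, SD, n = 3, fitted -0.23). PDK1, the kinase best known as a HIF-1 target, had 33.1, 27.8 and 32.7 CPM with TGF-β and 27.3, 24.9 and 24.6 CPM with TFA. The margin came from TGFb 2 (27.8 CPM) and TGFb_TFA 1 (27.3 CPM), which nearly met. Its log2 fold change was -0.29 (SE 0.13, interval -0.59 to 0.02; unadjusted p = 0.0618 by edgeR and 0.0424 by DESeq2, adjusted p = 0.9997 and 0.9998). PDK3 had 43.1, 40.0 and 41.2 CPM against 36.3, 36.7 and 37.4 CPM, a tight pair of groups with a log2 fold change of -0.17 (SE 0.11, interval -0.43 to 0.09). Both were negative in all 18 alternatives, PDK1 from -0.36 to -0.20 and PDK3 from -0.21 to -0.11. Those refit the same libraries, so with the groups apart a change of sign was hardly possible. SLC2A1, HK1 and HK2, whose groups overlapped, were below 0 in all 18 as well. PDK1 and PDK3 are also the members with the longest transcripts by effective length. PDK1 lies on chromosome 2 from 172555373 to 172599137 and PDK3 on chromosome X from 24465270 to 24541862, both on the plus strand. PDK2, at 0.636 FPKM the least abundant member, had 0.10 (interval -0.41 to 0.61).

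The pyruvate carrier and the dehydrogenase itself did not part. MPC1 and MPC2 form the mitochondrial pyruvate carrier. MPC1 had 36.1, 37.0 and 33.7 CPM with TGF-β and 34.1, 34.1 and 57.8 CPM with TFA, so that its fitted 0.24 (SE 0.22) rested on TGFb_TFA 3. Without that library it was -0.06. MPC2 had 0.003 (interval -0.46 to 0.47). Among the member subunits of the dehydrogenase, PDHA1 varied least in FPKM, at 21.4 ± 0.845 and 20.8 ± 0.212 (-0.01, interval -0.30 to 0.28). PDHB (0.15) and DLAT (-0.07) had intervals that held 0, and in PDHB too the raised value was that of TGFb_TFA 3 alone (123 CPM against 76.4 to 95.9 in the other 5 libraries).

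TGFb_TFA 3 set much of the contrast between the early and late steps. It held the lowest value of 11 members and the highest of another 11. The lowest of its deviations from the mean of the 6 libraries was that of HK2 (-0.67, log2) and the highest that of MPC1 (0.60). Over the 16 members of shorter effective length its median deviation was 0.23, and over the 17 longer ones -0.19. Across the 33 genes the Spearman correlation of deviation with length was -0.62 in this library and between -0.12 and 0.58 in the others. These points share 1 library, and the correlation is given as a description. The genes of uptake and of hexose phosphates have mostly long transcripts, and GAPDH, TPI1, LDHB, MPC1 and MPC2 short ones. In the fit with each library's length trend removed, the medians were -0.21 for uptake, -0.05 for hexose phosphates and -0.04 for the payoff phase. As reported they were -0.22, -0.08 and -0.03. HK2 was then at -0.25, LDHB at 0.16 and MPC1 at 0.17, beside -0.26, 0.19 and 0.24 as reported. The part of length in the contrast between steps was not tested. Without TGFb_TFA 3, 26 of the 33 fitted values lay below 0 (46.9% of all genes), with a median of -0.10 (0.02 over all genes), and 11 members were apart on the lower side, where 9.44% of all genes were. Those 11 were the 6 named above with GAPDH, PGK1, ENO1, LDHA and PDHA1. Leaving out TGFb 1 gave 12 (9.38% of all genes), the same 6 with SLC2A1, HK1, GPI, PFKL, PFKM and ALDOA. Leaving out both gave 19 (18.7% of all genes). In these 3 fits 0 members were called.

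**Figure D5:**
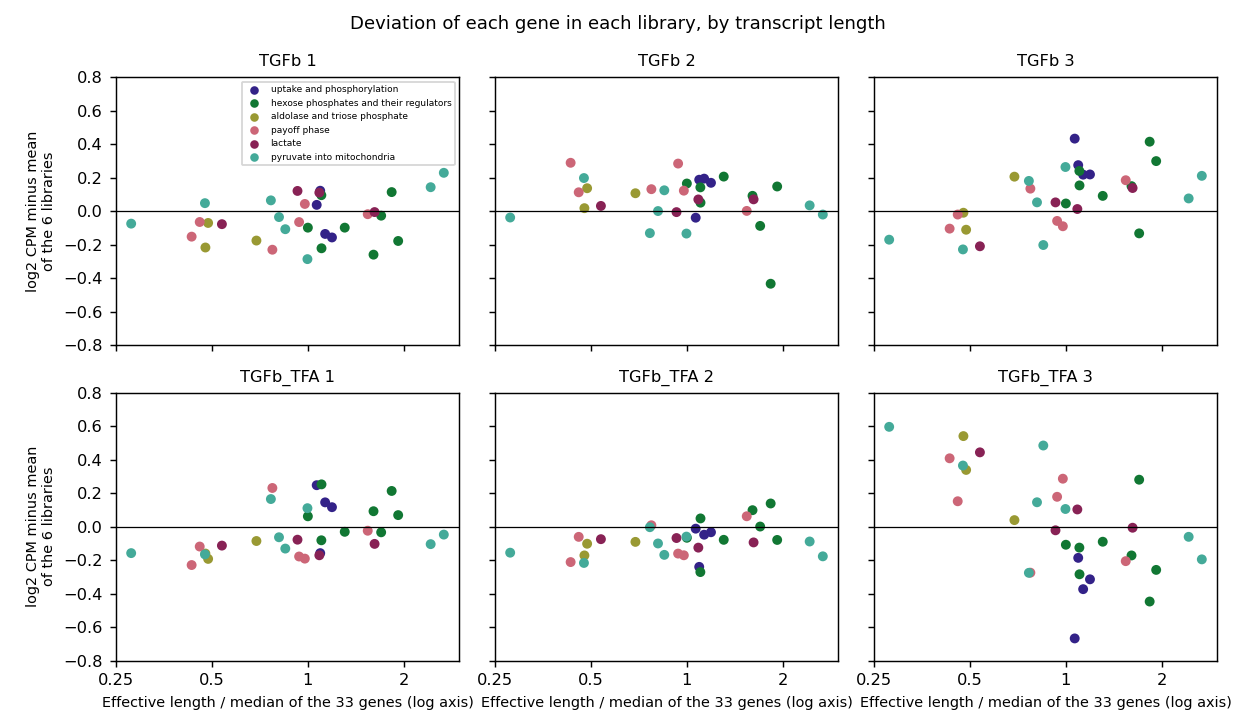
Deviation of each of the 33 genes from its mean over the 6 libraries (log2 CPM) against effective transcript length relative to the median of the 33 (log axis), in each library, coloured by step. In TGFb_TFA 3 the short genes sit high, up to 0.60, and the longer ones low, down to -0.67; the other libraries show no such slope downwards of that size.

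Among genes that border on the pathway, none was called either. Among further isozymes and transporters, 15 of the 21 found in the table were tested, with 9 fitted below 0 and a median of -0.01. LDHD, a mitochondrial dehydrogenase for D-lactate, was the only one at an unadjusted p under 0.05 in edgeR (0.0137, adjusted p = 0.9997). In TGFb it stood at 0.246 ± 0.0516 and in TGFb_TFA at 0.0869 ± 0.00770 FPKM (SD, n = 3), both trace levels. BSG was the most abundant. In gluconeogenesis (5 tested, median 0.03, most abundant PCK2 at 0.03), the pentose phosphate branch (7 tested, median -0.02, most abundant TALDO1 at 0.15), the serine branch (5 tested, median 0.06, most abundant PSAT1 at 0.04) and the citric acid cycle (17 tested, median 0.04, most abundant FH at 0.10), 0 genes were called or stood at an unadjusted p under 0.05. The remaining pyruvate dehydrogenase genes were mostly fitted below 0 (5 of 6, median -0.16), with DLD at -0.07 and the phosphatase PDP1 at 0.13 (SE 0.12). None of the 13 regulators stood at an unadjusted p under 0.05 or was called by edgeR. Their fitted values ran from -0.53 to 0.20, with 8 below 0 and a median of -0.08. HIF1A had 42.3 ± 3.35 and 34.8 ± 15.2 FPKM (SD, n = 3, fitted -0.29, SE 0.28). Its lower mean came from TGFb_TFA 3 alone, at 17.2 FPKM, while the other TFA libraries, at 42.9 and 44.2, lay within the TGFb range of 39.1 to 45.8. MYC had -0.08 (SE 0.17). TXNIP, a glucose-induced brake on glucose uptake, had 0.20 (SE 0.16), with TGFb_TFA 3 highest at 89.8 CPM.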

How the data were processed

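RNA of 6 libraries, 3 per group, was analysed from 1 deposited table. Per the labels' protocols, poly(A) RNA was sequenced in pairs from libraries that mark strand by dUTP. Per the submitters' processing notes, cutadapt 1.9, HISAT2 2.0.4, StringTie 1.3.4d and GRCh38 were used, with no role given. The table holds FPKM values and estimated counts, both made by the authors and used as deposited. The estimated counts are whole numbers, but 1032 to 1271 genes per library had a count of 4, more than had 3 (601 to 685) or 5 (345 to 396), so they may derive from coverage and overstate the number of fragments.

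Counts were fitted in edgeR 4.0.16 (R 4.3.3): filterByExpr, TMM scaling, group as the only term, the 2-sided quasi-likelihood test, and Benjamini-Hochberg adjustment over 18265 genes. The fit was also run on simulated counts with planted changes larger than any fitted for a member. They had no length trend and no outlying library, and no result rests on that run. Standard errors are the log2 fold change over the square root of F. Alternatives were DESeq2 1.42.0, limma-trend (limma 3.58.1) on log2(FPKM + 0.5) and with pseudocounts of 0.1 and 1, other filters and scalings, counts divided by 4, offsets along effective length (the ratio of count to FPKM), the replicate number as a block, and libraries left out. The members, lists and rules were chosen with earlier results of these data known. Per-library values are given for members at an unadjusted p under 0.05, with groups apart or with a log2 size of at least 0.3, and for the most abundant of each step. Others were added after their values were seen. Promoters are RefSeq's.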

Additional observations from a re-analysis of the deposited data

How the results depend on the processing

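The count of members called was 0 in all 18 alternatives, and 0 members stood at an unadjusted p under 0.05 on the higher side in any of them. On the lower side, 2 members stood there in the reported fit. That count was 1 on each FPKM scale (pseudocounts 0.1, 0.5 and 1) and with length offsets, 0 with the replicate block (with or without length offsets), and between 1 and 3 with 1 library left out. The replicate numbers were not taken as pairs: same-numbered libraries had correlations of 0.04, -0.12 and -0.13 between their deviations from the group means. With 3 libraries a group this does not show that no pairing exists, and the labels give such libraries the same treatment time. Members whose groups did not overlap on the lower side were 6 as reported. They were 1 with length offsets, with or without the replicate block (3.85% of all genes). In that overlap count the length trend may have been taken out to excess. The count was 4 with counts divided by 4 (2.9%) and 5 to 12 with 1 library left out (7.02% to 9.44%). It was 19 without TGFb 1 and TGFb_TFA 3 together, where 18.7% of all genes were. On the higher side the count was 0 as reported. It was 1 with a mean FPKM of at least 1 (3.8% of all genes) and on each FPKM scale (4.22%). It was also 1 without TGFb 1 and TGFb_TFA 3 together (19.2%), and 0 to 1 with 1 library left out (7.08% to 10.5%). The members' median of -0.08 was -0.16 without TGFb 1 and TGFb_TFA 3 together, and with 1 library left out it ran from -0.11 (without TGFb_TFA 1) to -0.01 (without TGFb 2). The cause of these shifts was not tested. Of 592 refitted values of single members, 583 were counted as unmoved. They stayed within the spread between libraries or, for genes described as apart, kept their direction and their side of the threshold. With 3 libraries a group, leaving out 1 can hardly shift a value beyond that spread, so this count says little about single libraries. Without TGFb_TFA 3, for example, MPC1 went from 0.24 to -0.06, LDHB from 0.19 to -0.01 and PDHB from 0.15 to -0.09. With 3 libraries per group, changes of over 1.5-fold lay outside the 95% interval in 22 of the 33 members, and the intervals of the other 11 reached past that size.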
